A study of Mus musculus with 5 samples.

Results

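The developmental transcription factor genes of 9 families, Fox, Sox, Pax, Lhx, Nkx, Dlx, Gata, Irx and Tbx, were examined for peaks of the chromatin remodeller ATRX at their gene ends. Members were taken by symbol from the protein-coding genes that the RefSeq annotation of the mouse assembly GRCm38.p6 places on chromosomes 1 to 19. This gave 119 of 20665 genes: 41 Fox, 18 Sox, 14 Nkx, 12 Tbx, 9 Pax, 8 Lhx, 6 Dlx, 6 Irx and 5 Gata genes. Of these, 25 were classed from textbook knowledge as factors of forebrain neurons, with earlier results of these data known. The other 94 were classed as acting mainly in other tissues, in progenitors and glia, or in most cells. The split is not clean, since the forebrain class also holds Pax6 and Sox1, which act in neural progenitors too. A gene is called occupied in a library when at least 1 peak summit lay within 1 kb of its start or end coordinate.

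Cultured primary neurons of C57BL6/J mice, isolated at embryonic stage E15.5-17.5 and infected with lentivirus at day 5 in vitro, were profiled by ChIP-seq with an ATRX antibody. There were 4 ChIP libraries, 1 per group. Of these, 3 were taken at 14 days in vitro (DIV14) and carried mCherry (the control), TBC1D3 or a construct labelled MICAL1-M1, and the fourth was taken at 7 days (DIV7), carried mCherry and is called young neurons in the series design. mCherry is a fluorescent protein, TBC1D3 is a gene of hominoids that mice lack, and MICAL1 is an enzyme that oxidises actin; the series title concerns an axis of hominoid signalling and the pace at which synapses mature. What the M1 form is, the brain region, the viral promoter and the number of animals per library were not stated in the labels. With 1 library per group no difference between groups has a replicate error or a test.

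Fox genes encode forkhead proteins and Sox genes encode HMG-box proteins, while the Pax, Lhx, Nkx, Dlx and Irx families carry homeodomains, Gata proteins have zinc fingers and Tbx proteins a T-box. Most members direct the patterning of an embryo or the choice of a cell fate, so that each is on in a few lineages and held silent, often by Polycomb proteins over a CpG island, in the rest. In the forebrain, Lhx2 and Pax6 pattern the cortex, Dlx1, Dlx2, Dlx5, Dlx6, Nkx2-1, Lhx6 and Lhx8 act in the lineages of inhibitory and cholinergic neurons, and Sox4, Sox5, Sox11 and Foxp1 work in maturing neurons. ATRX is a chromatin remodeller that deposits the histone variant H3.3 with its partner DAXX and is known for its binding at repeats and at GC-rich sequence that can fold into G-quadruplexes.

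The promoters of the members were rich in CpG. For 80 members and 16457 of all genes, RefSeq promoter sequences on GRCm38.p6 (250 bases before to 50 bases after the start of transcription) were at hand, and the most CpG-rich start of each gene was used. The members' promoters held a median of 22 CpG sites and 65.7% G+C, against 15 sites and 57.7% over all genes. A G-quadruplex motif (4 runs of at least 3 G, with gaps of 1 to 7 bases, on either strand) was found in 32 of the 80 promoters, against 22.9% of all promoters of the same length. Promoters of 6 members are shown, each the 250 bases before the start of transcription of a gene that had an ATRX summit inside its annotated promoter window, 3 of forebrain neuron genes and 3 of genes of other lineages. They are written 5′ to 3′ on the strand of the gene, with CpG sites in capitals.
Sox12: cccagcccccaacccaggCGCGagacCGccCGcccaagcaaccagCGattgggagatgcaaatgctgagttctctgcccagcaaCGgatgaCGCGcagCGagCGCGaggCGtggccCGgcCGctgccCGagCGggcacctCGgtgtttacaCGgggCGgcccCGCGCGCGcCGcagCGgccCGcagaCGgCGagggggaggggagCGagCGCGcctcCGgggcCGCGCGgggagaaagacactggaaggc
Dlx2: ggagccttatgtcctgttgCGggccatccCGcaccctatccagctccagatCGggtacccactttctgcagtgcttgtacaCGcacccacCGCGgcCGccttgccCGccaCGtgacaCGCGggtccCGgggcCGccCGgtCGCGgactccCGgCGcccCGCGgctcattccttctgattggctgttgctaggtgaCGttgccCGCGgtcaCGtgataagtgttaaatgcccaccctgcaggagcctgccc
Lhx1: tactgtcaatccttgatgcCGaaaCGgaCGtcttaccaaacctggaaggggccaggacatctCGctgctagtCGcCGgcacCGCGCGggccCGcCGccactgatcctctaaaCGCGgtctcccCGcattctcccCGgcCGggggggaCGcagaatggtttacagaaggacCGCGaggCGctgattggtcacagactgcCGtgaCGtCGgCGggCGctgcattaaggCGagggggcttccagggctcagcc
Gata2: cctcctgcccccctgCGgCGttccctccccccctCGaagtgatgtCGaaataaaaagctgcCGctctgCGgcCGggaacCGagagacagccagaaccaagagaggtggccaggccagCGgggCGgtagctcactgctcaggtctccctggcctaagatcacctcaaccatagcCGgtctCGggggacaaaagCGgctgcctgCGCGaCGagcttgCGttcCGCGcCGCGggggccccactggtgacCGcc
Tbx1: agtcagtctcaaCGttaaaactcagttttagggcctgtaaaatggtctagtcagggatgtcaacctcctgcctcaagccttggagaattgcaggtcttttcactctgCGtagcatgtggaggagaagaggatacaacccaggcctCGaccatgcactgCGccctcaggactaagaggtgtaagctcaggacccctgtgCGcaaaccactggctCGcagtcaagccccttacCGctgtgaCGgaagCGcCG
Nkx3-2: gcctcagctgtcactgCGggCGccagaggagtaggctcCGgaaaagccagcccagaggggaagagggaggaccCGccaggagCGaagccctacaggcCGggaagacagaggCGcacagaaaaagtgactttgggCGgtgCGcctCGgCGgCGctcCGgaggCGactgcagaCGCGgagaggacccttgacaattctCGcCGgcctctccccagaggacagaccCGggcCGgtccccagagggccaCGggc

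The Sox12 stretch (chr2:152398047-152398296, minus strand) holds 35 CpG sites, and its summit lay 49 bp upstream of the start in the MICAL1-M1 library, in a peak of 2.72-fold over the local background built from 11 fragments. In Dlx2 (chr2:71546755-71547004, minus strand, 24 CpG sites) the summit lay 198 bp upstream in the TBC1D3 library, at 2.63-fold and 6 fragments. The Lhx1 stretch (chr11:84525535-84525784, minus strand) has 26 CpG sites and a DIV7 summit 200 bp upstream, at 2.07-fold and 5 fragments. Gata2, a factor of blood stem cells, has 22 CpG sites in its stretch (chr6:88193641-88193890, plus strand) and a DIV7 summit 98 bp upstream, at 2.63-fold and 5 fragments. The stretch of Tbx1, a factor of the pharyngeal arches (chr16:18590672-18590921, minus strand), holds only 10 CpG sites and had a TBC1D3 summit 87 bp upstream, at 3.16-fold and 6 fragments. Nkx3-2, which acts in cartilage and the spleen (chr5:41764221-41764470, minus strand), has 21 CpG sites and carried a MICAL1-M1 summit 242 bp and a DIV7 summit 91 bp upstream. Summits in such a window were the exception: 4 of the members' gene-end peaks in each DIV14 library and 7 at DIV7 had one.

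The libraries differed in depth in ways that reach every count below. Peaks numbered 96670, 199059, 141387 and 213982 in the control, TBC1D3, MICAL1-M1 and DIV7 lists, all at an uncorrected p below 0.05. Read from fold and p, the genome background was 3.56, 1.22, 2.61 and 1.28 fragments in the same order, so that a peak over it needed at least 7, 3, 5 and 3 fragments, respectively. A q of at most 0.05 was reached by 4041, 329, 625 and 415 peaks. A peak list holds no expression values, so the neurons could not be checked against marker genes. Of 19 markers of glia, microglia, endothelium and fibroblasts on these chromosomes, the libraries occupied 3, 8, 4 and 8, respectively. These are 15.8%, 42.1%, 21.1% and 42.1%, against 44.3%, 34.7%, 40.4% and 34.3% of all genes.

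In the control the members as a set were occupied less often than all genes, and the classes of members stood far apart. Summits lay at 40 of 119 members, 33.6% (95% exact binomial interval 25.2% to 42.8%, covering counting error only), against 44.3% of all protein-coding genes. The forebrain neuron genes stood at 20 of 25, 80.0% (59.3% to 93.2%), and the remaining members at 20 of 94, 21.3% (13.5% to 30.9%). The difference between these classes was 58.7 percentage points (Newcombe 95% interval 37.4 to 71.9). Among the 94, the 78 genes of other lineages were lowest, with 11 occupied (14.1%), while 5 of 7 broadly expressed factors such as Foxj3 and Foxk2, and 4 of 9 progenitor and glial factors such as Sox8 and Sox9, were occupied.

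On the full lists the other libraries held more members than the control. TBC1D3 had 64 of 119 occupied, 53.8% (44.4% to 63.0%), against 34.7% of all genes, and DIV7 had 67, 56.3% (46.9% to 65.4%), against 34.3%. MICAL1-M1 had 49, 41.2% (32.2% to 50.6%), a share near its 40.4% over all genes. The split between the classes was narrower in each: 56.0% of forebrain neuron genes against 53.2% of the remaining members in TBC1D3, 68.0% against 34.0% in MICAL1-M1 and 76.0% against 51.1% at DIV7. The difference was 2.81 percentage points in TBC1D3 (interval -18.5 to 22.8), 34.0 in MICAL1-M1 (11.9 to 51.2) and 24.9 at DIV7 (3.15 to 40.9). In the plot of occupied shares by class, the members outside the forebrain class lie under all genes in the control and in MICAL1-M1, and above them in TBC1D3 and at DIV7.

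**Figure D1:**
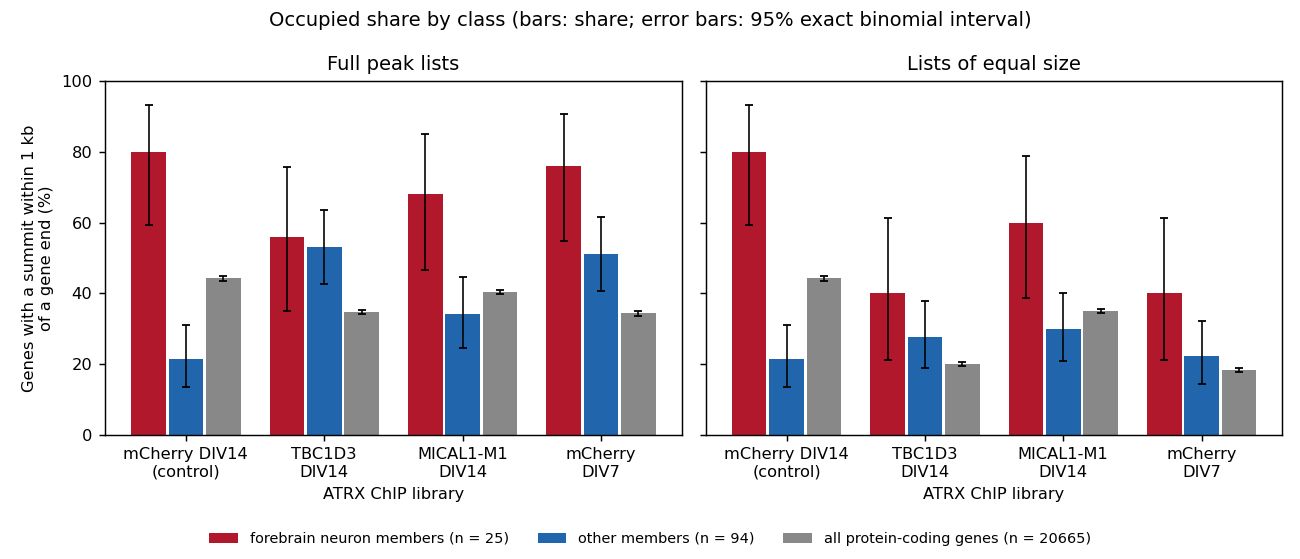
Share of occupied genes (%) in each ATRX ChIP library. The left panel uses the full peak lists. The right panel uses the 96647 peaks of lowest p of each list, with ties cut by fold, then by position. Bars are the 25 forebrain neuron genes (red), the 94 remaining members (blue) and all 20665 protein-coding genes (grey), and error bars are 95% exact binomial intervals. The red bar stands highest in every library, and its distance from the blue bar is widest in the control (80.0% against 21.3%).

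List length moved with these counts. Each list was limited to its 96647 peaks of lowest p. Among peaks of equal p, those of higher fold were kept, then those first by chromosome name and position. Genome order could thus decide which tied peaks were kept, and its effect on these counts was not tested. The control, TBC1D3, MICAL1-M1 and DIV7 occupied 40, 36, 43 and 31 members on these lists, against 44.3%, 20.1%, 35% and 18.4% of all genes. The counts of TBC1D3 and DIV7 then lay below the control's, the reverse of the full lists. As shares of members they were 30.3% and 26.1%, still above those of all genes. The forebrain neuron genes stood at 20, 10, 15 and 10 of 25, so that in every library they were still occupied more often than the remaining members. How much of the difference between libraries depth accounts for was not tested.

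A gain is a member with a summit in a library and none in the control, and a loss is the reverse; neither is a tested change, and all 3 comparisons share the control library. TBC1D3 had 41 gains, 34.5% of members against 15.9% of all genes, and 17 losses, 14.3% against 25.5%. DIV7 had 40 gains (33.6% against 15.9%) and 13 losses (10.9% against 25.8%). MICAL1-M1 had 23 gains (19.3% against 11.9%) and 14 losses (11.8% against 15.8%). The forebrain class had more losses than gains in each comparison, and the remaining members more gains than losses. TBC1D3 gained 2 forebrain neuron genes and lost 8, against 39 gained and 9 lost among the rest. MICAL1-M1 gained 2 and lost 5 forebrain neuron genes, against 21 and 9 of the rest, and DIV7 gained 5 and lost 6, against 35 and 7. A gene that the control did not occupy can only be gained, and 74 of the 94 were of that kind against 5 of the 25. On lists of equal length TBC1D3 had 21 gains (8.53% of all genes) and 25 losses (32.7%), MICAL1-M1 20 gains (9.33%) and 17 losses (18.6%), and DIV7 18 gains (7.85%) and 27 losses (33.7%). Losses then outnumbered gains in TBC1D3 and at DIV7, the reverse of the full lists. Over all genes losses outnumbered gains in each comparison on both kinds of list. As shares, the members' gains stayed above those of all genes and their losses below, as on the full lists. Only genes that the control occupied can be lost, and these were 40 members and 9150 of all genes. On the full lists TBC1D3 lost 17 of the former and 5264 of the latter, DIV7 13 and 5331, and MICAL1-M1 14 and 3266. On that base MICAL1-M1 lost members about as often as all genes, also on lists of equal length (17 and 3854). The peaks at gained members had a median of 4 fragments in TBC1D3, 7 in MICAL1-M1 and 5 at DIV7, and a maximum of 7, 11 and 7.

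**Figure D2:**
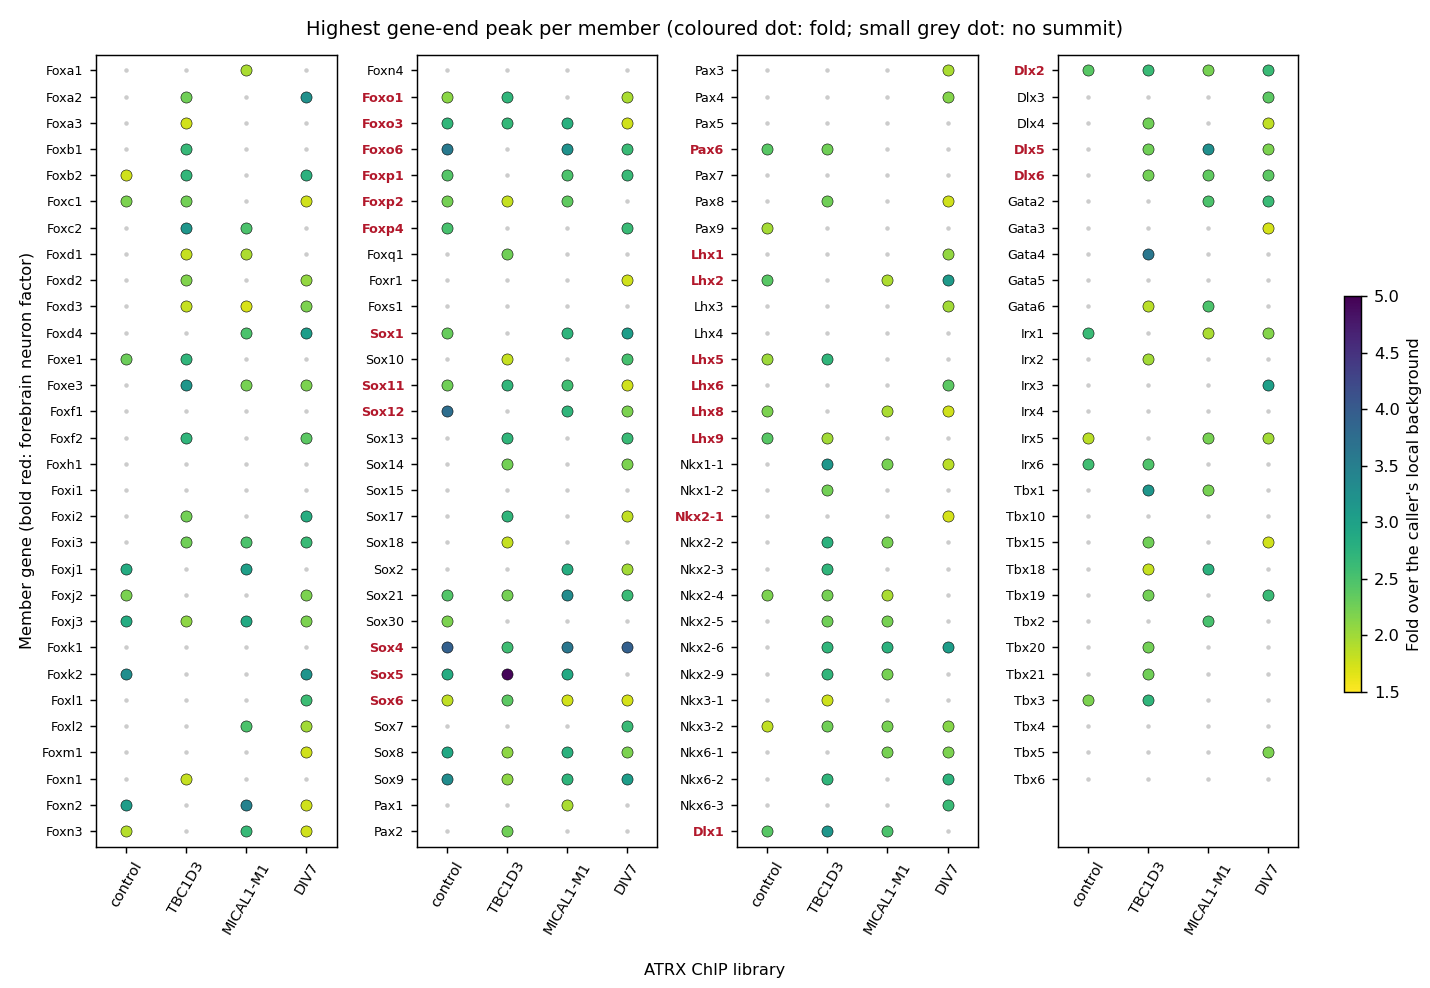
Highest gene-end peak of 118 of the 119 members (rows) in the 4 libraries (columns), with forebrain neuron genes in bold red. Large dots are coloured by the authors' fold over the local background (1.5 to 5.0), and small grey dots mark no summit within 1 kb of a gene end. Columns fill unevenly by family. The Nkx rows are nearly empty in the control, with 2 of 14 genes, and mostly filled in TBC1D3, with 11 of 14. Over all genes the shares were 44.3% and 34.7%.

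Among the cortical and pan-neuronal factors, Sox4 and Sox11, HMG-box factors of newborn neurons, were occupied in all 4 libraries. Sox4 (chr13, minus strand, 4781 bp) had its highest peak at 3.94-fold with 18 fragments in the control, at 2.58-fold with 5 in TBC1D3, 3.62-fold with 14 in MICAL1-M1 and 3.94-fold with 8 at DIV7. The control peak, at chr13:28947812-28949921, had its summit 481 bp from the 3′ end of the gene, whereas the MICAL1-M1 and DIV7 peaks sat at its 5′ end. A second, lower control peak of 2.24-fold had its summit 65 bp from the 5′ end. Sox11 had 2, 2, 3 and 1 summits in the control, TBC1D3, MICAL1-M1 and DIV7, and its broad control peak at chr12:27340989-27344544 spanned 3556 bp with 20 fragments at 2.26-fold, the most fragments of any member peak together with Sox5.

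Sox5, which shapes deep-layer cortical neurons and spans 953863 bp on chromosome 6, had the highest member fold of the TBC1D3 list, 4.95 with 10 fragments (chr6:144781415-144782664), at its 5′ end. The same end held control peaks of 2.85-fold (20 fragments) and 2.85-fold (12 fragments) and a MICAL1-M1 peak of 2.89-fold (11 fragments), and no DIV7 summit. Its relative Sox6, a factor of interneuron maturation, was occupied in every library at 1.73- to 2.38-fold. The TBC1D3 peak of Sox6 lay at its 3′ end, and those of the other libraries at its 5′ end. Sox12, related to Sox4 and Sox11, had 3.74-fold with 18 fragments in the control (chr2:152398205-152399475), no summit in TBC1D3, 2.72-fold with 11 in MICAL1-M1 and 2.19-fold with 4 at DIV7. The DIV7 peak of Sox12 lay at its 3′ end, and the control and MICAL1-M1 peaks named at its 5′ end. Sox1, a marker of neural progenitors that also acts in ventral forebrain neurons, had 2.31-fold in the control, none in TBC1D3, 2.73-fold in MICAL1-M1 and 3.07-fold at DIV7.

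The FoxO genes, effectors of insulin signalling, and the FoxP genes, linked to speech and cognition, were well represented. Foxo6 had 3.58-fold with 16 fragments in the control (chr4:120286664-120288199) and 3.21-fold with 14 in MICAL1-M1 at an overlapping place, while its DIV7 peak of 2.63-fold lay at the other gene end and TBC1D3 had no summit. Foxo3 was occupied in all 4 libraries, at 2.69-, 2.67-, 2.78- and 1.75-fold, and Foxo1 in all but MICAL1-M1, at 2.11-, 2.71- and 1.95-fold. The TBC1D3 peak of Foxo1 lay at its 3′ end, and those of the control and DIV7 at its 5′ end. Foxp1 had 2.43-fold in the control, 2.49-fold in MICAL1-M1 and 2.64-fold at DIV7, Foxp4 2.51-fold in the control and 2.63-fold at DIV7, and Foxp2 2.23-, 1.80- and 2.35-fold in the control, TBC1D3 and MICAL1-M1. A 2.49-fold MICAL1-M1 peak of Foxp1 lay at its 3′ end, and the control and DIV7 peaks named at its 5′ end. TBC1D3 thus lacked a summit at Foxo6, Foxp1 and Foxp4 but not at Foxo1, Foxo3 and Foxp2.

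The regional patterning factors were mixed. Lhx2, a selector of cortical fate, had 2.41-fold with 10 fragments in the control, none in TBC1D3, 1.93-fold with 8 in MICAL1-M1 and 3.11-fold with 8 at DIV7. That MICAL1-M1 peak lay at the 3′ end of Lhx2, and those of the control and DIV7 at its 5′ end. For Pax6, a master factor of cortical progenitors, the control peak (2.41-fold, 10 fragments) had its summit 186 bp upstream of the start, whereas both TBC1D3 peaks (each 2.26-fold, 4 fragments) lay at the 3′ end, and the remaining libraries had none. Lhx5 and Lhx9, factors of the hippocampal anlage and the thalamus, shared that pattern of control and TBC1D3 alone, with 2.02- and 2.41-fold in the control and 2.71- and 1.98-fold in TBC1D3. Occupied in both libraries, as at Pax6, therefore does not mean a peak at the same place.

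The factors of the inhibitory lineage differed among themselves. Dlx1 and Dlx2, neighbours on chromosome 2, were occupied in the control at 2.41-fold each with 10 fragments, and again in TBC1D3 (3.16- and 2.63-fold) and MICAL1-M1 (2.49- and 2.22-fold), and only Dlx2 at DIV7 (2.63-fold). The 2.41-fold control peak of Dlx1 lay at its 3′ end, with 3.16-fold TBC1D3 and 2.49-fold MICAL1-M1 peaks at its 5′ end. At Dlx2 the control peak lay at the 5′ end and a 2.22-fold MICAL1-M1 peak at the 3′ end. Dlx5 and Dlx6, the paired copies on chromosome 6, had no control summit and had 1 each in TBC1D3 (2.26- and 2.25-fold), MICAL1-M1 (3.28- and 2.36-fold) and DIV7 (2.19- and 2.39-fold). The TBC1D3 peak of Dlx5 lay at the other gene end from its MICAL1-M1 and DIV7 peaks. Lhx6 and Nkx2-1, which specify interneurons of the medial ganglionic eminence, and Lhx1 had a summit at DIV7 alone, at 2.39-, 1.73- and 2.07-fold with 5, 3 and 5 fragments. Lhx8, of cholinergic neurons, was occupied in the control (2.19-fold), MICAL1-M1 (1.94-fold) and DIV7 (1.75-fold). Dlx5, Dlx6, Lhx1, Lhx6 and Nkx2-1 were the 5 genes of the forebrain class without a summit in the control, and no forebrain neuron gene lacked a summit in all 4 libraries.

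Members outside the forebrain class were led in the control by factors of broad or glial expression. Foxk2, a widely expressed forkhead factor, had 3.29-fold with 14 fragments (chr11:121259065-121259995), with the summit 106 bp upstream of its start, and Sox9, a factor of glia and cartilage, had 3.31-fold with 15 fragments (chr11:112780929-112782103). Foxn2 followed at 3.07-fold, Sox8, a factor of glia, at 2.90-fold, and Foxj3 and Foxj1, the factor of motile cilia and ependyma, at 2.85-fold each. Sox9 was occupied in every library, as were Sox8, the progenitor factor Sox21 and Foxj3. Nkx3-2 was the only gene of another lineage with a summit in all 4, at 1.83-, 2.26-, 2.22- and 2.14-fold. In all, 10 members (8.40%) were occupied in every library, close to the 6.58% of all genes, and 5 of the 10 were forebrain neuron genes: Sox4, Sox6, Sox11, Foxo3 and Dlx2.

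The Nkx, Tbx and Gata families had the lowest shares occupied in the control. TBC1D3 gained 9, 6 and 2 of their genes and lost none, where 15.9% of all genes were gained and 25.5% lost. Few of these genes could be lost, as the control occupied 2, 1 and 0 of them. The Nkx genes pattern the ventral neural tube, heart, gut and endocrine organs. They were occupied at 2, 11, 8 and 7 of 14 in the control, TBC1D3, MICAL1-M1 and DIV7. Over all genes the shares were 44.3%, 34.7%, 40.4% and 34.3% in the same order. The Tbx genes, of heart, limb and mesoderm, stood at 1, 7, 3 and 3 of 12, and Tbx3 was the control's only one. No Gata gene, of blood, heart and endoderm, was occupied in the control, and 2 of 5 were in each of the others. Gata4, a cardiac factor, had the second-highest member fold in TBC1D3, 3.61 with 7 fragments (chr14:63270623-63271028), and no summit elsewhere. Further TBC1D3 peaks stood at Foxc2, of vessels and kidney (3.17-fold), and at Tbx1, Foxe3 and Nkx1-1 (3.16-fold each with 6 fragments). On lists of equal length the Nkx genes stood at 2, 7, 7 and 4 and the Tbx genes at 1, 3, 3 and 1. The control was still lowest or tied for lowest in each. Over all genes these lists gave 44.3%, 20.1%, 35% and 18.4%.

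The Fox and Sox families, which are the largest, held the most occupied genes in every library. Over all genes the shares were 44.3%, 34.7%, 40.4% and 34.3% in the control, TBC1D3, MICAL1-M1 and DIV7. Fox genes stood at 16, 20, 17 and 25 of 41 in that order, or 39.0%, 48.8%, 41.5% and 61.0%, but turned over. TBC1D3 gained 13 and lost 9, where 15.9% of all genes were gained and 25.5% lost. MICAL1-M1 gained 8 and lost 7 (11.9% and 15.8% of all genes), and DIV7 gained 12 and lost 3 (15.9% and 25.8%). Sox genes stood at 10, 12, 10 and 14 of 18. The Lhx genes stood at 4, 2, 2 and 5 of 8, and the Irx genes, which pattern neural tube and heart, at 3, 2, 2 and 3 of 6. Both were occupied less often in TBC1D3 and MICAL1-M1 than in the control, as were all genes. Pax genes stood at 2, 3, 1 and 3 of 9, with Pax9 occupied in the control alone (1.97-fold), and Dlx genes at 2, 5, 4 and 5 of 6. With families of 5 to 41 genes, the intervals of these shares are wide: 14.3% for Nkx genes in the control has an interval of 1.78% to 42.8%, and 78.6% in TBC1D3 one of 49.2% to 95.3%.

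A summit in the other 3 libraries and none in the control was found at 7 members, 5.88% against 2.03% of all genes: Dlx5, Dlx6, Nkx2-6, Foxd3, Foxe3, Nkx1-1 and Foxi3. Nkx2-6, of the pharyngeal endoderm, had 2.71-fold in TBC1D3, 2.77-fold in MICAL1-M1 and 3.07-fold at DIV7, and Foxe3, the lens factor, 3.16-, 2.22- and 2.19-fold. Foxd3, of the neural crest, had 1.80-, 1.71- and 2.19-fold, with 3, 7 and 4 fragments. The control alone held Sox30, a testis factor, and Pax9, 1.68% of members against 6.62% of all genes. TBC1D3 alone held 13 members (10.9% against 7.56%), DIV7 alone 15 (12.6% against 8.22%), and MICAL1-M1 alone 3 (2.52% against 4.74%), which were Tbx2, Foxa1 and Pax1. No library had a summit at 15 members (12.6% against 24.6%), among them Pax5 and Pax7, of B cells and muscle, Gata5, Tbx4, Tbx6, Foxh1 and Foxf1, and the broadly expressed Foxk1.

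Few member peaks passed a correction over the genome. At a q of at most 0.05, 6 members of the control had a peak (8.95% of all genes), namely Sox4, Sox12, Foxo6, Sox9, Foxk2 and Sox5. TBC1D3 had Sox5 alone (0.15% of all genes), MICAL1-M1 had Sox4 alone (1.4%), and DIV7 had none (0.237%). Of these members, 4 of the control's 6 and both of the others belong to the forebrain class. By this rule no member was gained, where 0.106%, 0.905% and 0.179% of all genes were in TBC1D3, MICAL1-M1 and DIV7, and 5, 5 and 6 members were lost, against 8.9%, 8.45% and 8.89%. The members' gene-end peaks numbered 51, 89, 68 and 87 in the control, TBC1D3, MICAL1-M1 and DIV7, and 20, 87, 56 and 84 of them had a q of 1. Their median folds were 2.28, 2.26, 2.22 and 2.19, against 2.41, 2.26, 2.35 and 2.19 over the gene-end peaks of all genes in the same lists.

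A gained gene could carry a summit at the promoter or at the far end, and the strand separated these for the 80 members with a promoter entry. In the control, 24 of the 80 had a summit within 1 kb of the 5′ end and 8 within 1 kb of the 3′ end, against 41.7% and 6.15% of all genes. In TBC1D3 the counts were 31 and 25 (38.8% and 31.2%, against 25.3% and 13.7%), in MICAL1-M1 27 and 18 (33.8% and 22.5%, against 36.2% and 8.25%), and at DIV7 38 and 18 (47.5% and 22.5%, against 25% and 13.2%). The 3′ ends of members were thus occupied more often than those of all genes in each library. In the control this rests on few genes, 3 of 19 forebrain neuron genes and 5 of 61 remaining members (8.20%). Forebrain neuron genes had 5′ summits at 16, 7, 11 and 13 of 19, and the remaining members at 8, 24, 16 and 25 of 61. Members are often short, and of the 36 members under 4 kb, 9, 24, 16 and 20 were occupied, whereas over all genes that short the shares were 22.1%, 25.2%, 21.6% and 26.2%.

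**Figure D3:**
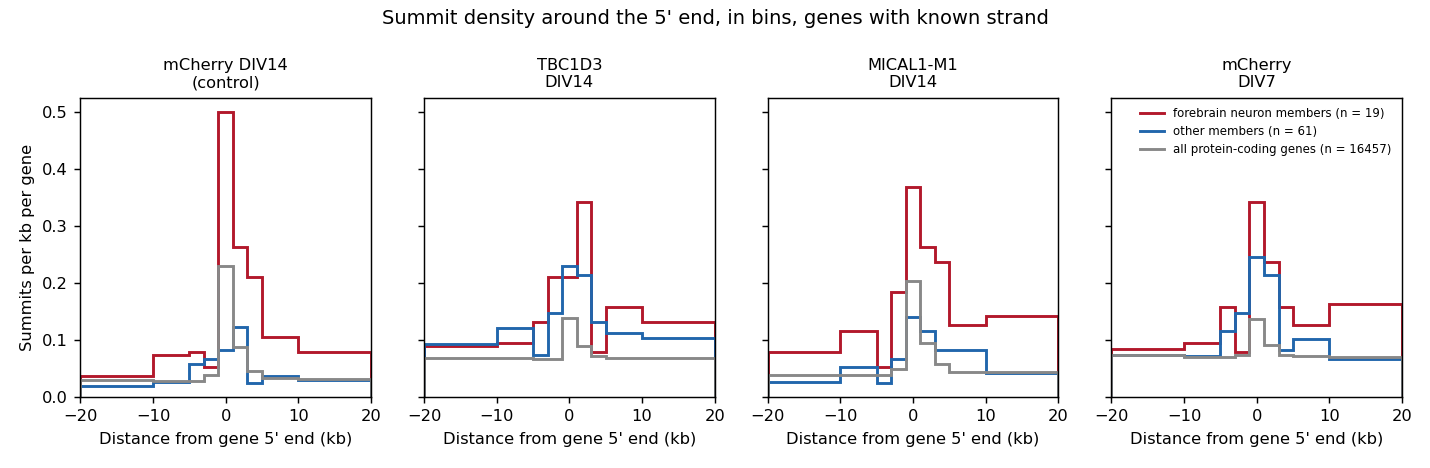
Peak summits per kb per gene (vertical axis) by distance from the 5′ end in kb (horizontal axis, downstream positive, drawn as bins) for genes of known strand in each library. Lines are the 19 forebrain neuron genes (red), the 61 remaining members (blue) and all 16457 genes (grey). The red line peaks at the 5′ end in the control (0.50 summits per kb) and is lower there in TBC1D3 (0.211), where the blue line lies above the grey one at the 5′ end.

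The distance profile set the windows against the surrounding sequence. Within 1 kb of the 5′ end the control had 0.50 summits per kb at forebrain neuron genes, 0.0820 at the remaining members and 0.230 over all genes. The same bin held 0.211, 0.230 and 0.138 in TBC1D3, 0.368, 0.139 and 0.203 in MICAL1-M1, and 0.342, 0.246 and 0.136 at DIV7. Farther out the members were also not at the level of all genes. In the flanks 10 to 20 kb outside both gene ends, the 119 members had 0.0298 summits per kb in the control against 0.0318 over all genes, but 0.0992 against 0.0716 in TBC1D3, 0.0496 against 0.0422 in MICAL1-M1 and 0.0853 against 0.0746 at DIV7. The forebrain neuron genes had 0.0560 in the control's flanks and the remaining members 0.0229, the same order as at the gene ends. In TBC1D3 the flanks of these classes stood at 0.102 and 0.0984. Closer in, 1 to 3 kb outside the gene ends, the classes were nearly level in the control, at 0.07 and 0.0612. The order in the control was thus not equally clear at each distance. Flanks were counted at full length and can hold ends of neighbouring members, such as Dlx1 and Dlx2.

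Among promoters of 5 or more CpG sites, the members stood below all genes in the control. Over all genes, the occupied share in the control was 38.4% for promoters of 5 to 14 CpG sites, 62.5% for 15 to 24 and 67.9% for 25 or more. The members stood at 6 of 20, 4 of 20 and 16 of 37 in the same classes, below all genes in each. The class of 0 to 4 sites holds only 3 members, of which the control occupied 2 against 8.33% of all genes, and TBC1D3 occupied 1 against 22.1%. In TBC1D3 the members stood at 10 of 20, 13 of 20 and 20 of 37, where all genes had 34.1%, 37.7% and 43.7%. At DIV7 they stood at 11, 7 and 27 of the same totals, against 32.8%, 36.8% and 41.5%, and in MICAL1-M1 at 7, 7 and 19, against 33.9%, 55.2% and 61.2%. Within the most CpG-rich class, the 10 forebrain neuron genes were occupied at 9, 4, 7 and 9 in the control, TBC1D3, MICAL1-M1 and DIV7, and the 27 remaining members at 7, 16, 12 and 18. The control's classes therefore stood apart among CpG-rich promoters as well. Members with the G-quadruplex motif were occupied at 11, 19, 16 and 18 of 32, against 57.8%, 42.6%, 52.7% and 40.9% of all genes with it. Members without it stood at 17, 25, 19 and 28 of 48, against 40.4%, 32.1%, 36.6% and 31.7%. Over all genes the share was thus higher with the motif in every library, whereas among the members in the control it was 34.4% with and 35.4% without.

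**Figure D4:**
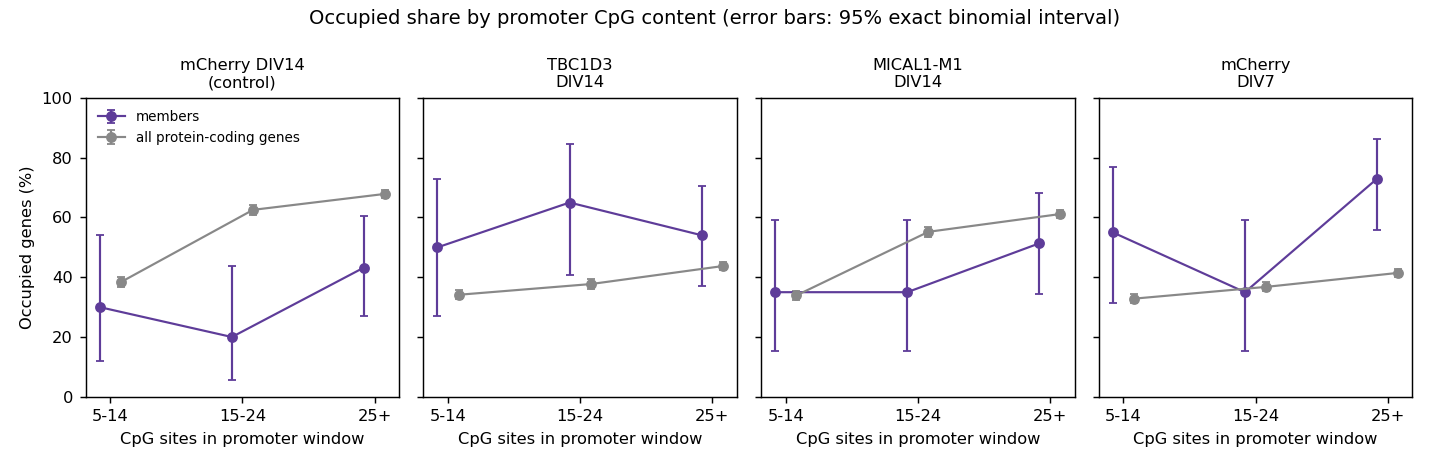
Occupied share (%, vertical axis) by the number of CpG sites in the promoter window (horizontal axis: 5 to 14, 15 to 24, 25 or more) in each library, for the members (purple; 20, 20 and 37 genes) and all genes (grey), with 95% exact binomial intervals. The class of 0 to 4 sites, with 3 members, is not drawn. In the 3 classes drawn, the purple points lie below the grey ones in the control and above them in TBC1D3.

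Peaks at members were shared with the control in part. Of the 51 control peaks at member gene ends, 21 (41.2%) were overlapped by at least 1 bp of a TBC1D3 peak, 27 (52.9%) by a MICAL1-M1 peak and 15 (29.4%) by a DIV7 peak. Over the 9518 control peaks at all gene ends the shares were 25.2%, 51.7% and 23.8%. On lists of equal length 16 (31.4%), 22 (43.1%) and 6 (11.8%) of the 51 were overlapped, against 16.2%, 47.0% and 14.7% over all genes. The members' share thus lay above that of all genes under both rules for TBC1D3, and on either side of it for MICAL1-M1 and DIV7. None of the member peaks was shared by a pair of members, and 16 of the 51 control peaks also lay within 1 kb of an end of another annotated gene, 3 of them protein-coding, so a peak may belong to a neighbouring transcript.

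Other transcription factor genes outside the 9 families were counted in the same way. They were listed from textbook knowledge with earlier results of these data known, so they are not an independent check of the classes. Of 30 forebrain factors, the control, TBC1D3, MICAL1-M1 and DIV7 occupied 21, 19, 21 and 22. These are 70.0%, 63.3%, 70.0% and 73.3%, against 44.3%, 34.7%, 40.4% and 34.3% of all genes. The highest folds in the control included Bcl11b (3.72-fold) and Cux2 (3.51-fold), factors of cortical layers. Of 36 factors of other lineages, they occupied 6, 18, 14 and 14, with Evx2 (3.56-fold) and Hand1 (3.16-fold) among the highest in TBC1D3. On lists of equal length these counts were 21, 10, 20 and 15 for the forebrain factors and 6, 13, 11 and 9 for the others. Over all genes these lists gave 44.3%, 20.1%, 35% and 18.4%.

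The 1 kb limit decided single genes. In the control the farthest summit counted lay 991 bp from an end of Sox30, and the nearest one not counted 1037 bp from Lhx4. For TBC1D3 these were Foxo1 at 999 bp and Irx5 at 1007 bp, for MICAL1-M1 Foxd4 at 955 bp and Sox13 at 1071 bp, and for DIV7 Foxr1 at 998 bp and Foxn4 at 1047 bp. Within 3 kb, 62, 100, 75 and 99 members had a summit, against 55.5%, 59.8%, 55.4% and 61.1% of all genes, and gains and losses were 49 and 11 in TBC1D3 (22.1% and 17.8% of all genes), 27 and 14 in MICAL1-M1 (12.5% and 12.6%) and 45 and 8 at DIV7 (23.3% and 17.7%). The forebrain class then reached 21, 22, 21 and 24 of 25. Counting any base of a peak gave 46, 75, 53 and 74 members, against 47.9%, 38.3%, 44.2% and 38.2%.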

How the data were processed

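ATRX ChIP-seq peak lists of 4 libraries were used, 1 per group; the series' input sample was not analysed here. The tools used by the authors were ChIPseeker 1.26.2, MACS 1.4.2, Bowtie 1.3.0 and SAMtools 1.9, per the submitters' processing notes, without roles or settings; no build was stated. That MACS version writes another layout, which leaves the caller uncertain. The deposited lists follow the narrowPeak layout. They give the authors' score per peak, the deposited fold (a ratio of pileup to local background), and the deposited -log10 p and -log10 q. In the MICAL1-M1 list the authors' peak names begin with M2.

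Whole fragments per peak were recovered from fold and a Poisson p (tolerance 0.001 in log10 p) for over 99.9% of peaks. Fold was taken as fragments plus 1 over background plus 1. Gene ends, names and promoters came from RefSeq on GRCm38.p6; scaffold names of the lists match that assembly. Summits within 1 kb of either gene end were counted in Python 3.11.15 with pandas 2.3.3, after checks on simulated data, and shares given with exact binomial intervals. Folds were ranked within a list. Where folds of a gene are given for several libraries, the backgrounds differ, so similar folds can rest on unlike numbers of fragments. No test between groups was possible with 1 library each. Members, gene classes and lists were chosen with earlier results of these data known. Genes named had a q of at most 0.05, a summit in all, none or a defined set of libraries, 1 of the 10 highest folds of a list, or forebrain class; of the other lists, the 3 highest folds per library. Some genes under this rule are not reported here. Tbx2, Foxa1, Pax1, Tbx3, the genes at the 1 kb limit and those with a promoter shown were named after their values were seen. Alternatives were a 3 kb window, any base of a peak, q of at most 0.05, lists of equal length, genes of at least 4 kb and, added after seeing the data, the 5′ end alone.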

Additional observations from a re-analysis of the deposited data

How the results depend on the processing

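No paired analysis was possible because each group has 1 library. On lists of equal length the order against the control turned. Members occupied were 36 in TBC1D3 and 31 at DIV7 against 40 in the control. Losses outnumbered gains, by 25 to 21 in TBC1D3 and by 27 to 18 at DIV7. The order against all genes held, with 30.3% of members against 20.1% in TBC1D3 and 26.1% against 18.4% at DIV7. Counting any base of a peak moved none of the 14 results beyond 1.5 times or, for differences, beyond their intervals. With a 3 kb window the members occupied were 62 in the control, 100 in TBC1D3 and 75 in MICAL1-M1, with 11 losses in TBC1D3 and 8 at DIV7. With q of at most 0.05 they were 6, 1, 1 and 0 in the control, TBC1D3, MICAL1-M1 and DIV7; gains were 0 in each comparison, losses 5, 5 and 6, and the classes differed by 13.9 percentage points in the control, 4.0 in MICAL1-M1 and 0 at DIV7. On lists of equal length, 11.8% of the control's member peaks were overlapped at DIV7. Gene ends exceeded the flanks by 0.0487 summits per kb in TBC1D3 and 0.0436 at DIV7 on those same lists. Of the 83 members of at least 4 kb, TBC1D3 occupied 40 (36.9% of all genes of that span), with 24 gains, and MICAL1-M1 had 13 gains. Gains over all genes of that span were not counted, so these gains have no background share and cannot be judged against one. The 5′ end alone, chosen after seeing the data and limited to the 80 members of known strand, gave 24, 31, 27 and 38. Requiring that a peak cover at least 50% of the control peak lowered the overlaps to 11.8% for TBC1D3, 37.3% for MICAL1-M1 and 1.96% for DIV7, against 6.79%, 28.2% and 6.17% over all genes, so that the DIV7 share then lay below that of all genes. Where an alternative keeps fewer peaks or genes its counts fall by construction; the cause of other shifts was not tested. Depth limits every absence, as a weaker signal was not detectable in any library. A peak over the background needed at least 7, 3, 5 and 3 fragments in the control, TBC1D3, MICAL1-M1 and DIV7. Because the backgrounds differed too, the lowest folds of member peaks were similar, at 1.63, 1.74, 1.66 and 1.73 in the same order.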
